A study of Mus musculus with 4 samples.

Results

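Immediate early genes are the genes a cell transcribes within minutes of a stimulus, without waiting for new protein. In neurons, calcium entry and growth factors reach them through CREB, bound to cAMP response elements (CREs), and through SRF with its ternary complex partners, bound to CArG boxes. Most of their products are transcription factors that pass the signal on to slower, late response genes, and their short-lived mRNAs are widely used as marks of recent neuronal activity. The 10 genes described here were *Fos*, *Fosb*, *Jun*, *Junb*, *Egr1*, *Egr2*, *Arc*, *Npas4*, *Nr4a1* and *Ier2*. All 10 were found by their Ensembl identifiers among the 55573 gene identifiers of the deposited count lists, and all 10 were among the 16832 genes that passed the filter on low counts. They were chosen by gene family, with the WT to KO fold changes of these same libraries already known for some of them. Their levels, fold changes and calls are therefore a description of these libraries. Their p-values are not printed, only whether they passed a threshold, and nothing is inferred from that.

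The RNA came from FACS-enriched tdTomato-positive cells of *Hmx3-Cre/tdTomato/Dnmt1* wild-type (WT) embryos and of embryos with a *Dnmt1* knockout (KO) at embryonic day 16 (E16). Cells of both genotypes carried the Cre driver of the homeobox gene *Hmx3* and the tdTomato reporter, which marks cells with a history of *Hmx3* expression, and in KO cells Cre removes exons 4 to 5 of *Dnmt1*. The labels name premature *Hmx3*-derived interneurons of the basal telencephalon, the paper the pre-optic area (POA), and both genotypes went through trypsin for 17 min at 37 °C before the sort, a handling step that immediate early transcripts can record. There were 2 libraries per genotype, from pools of 12 WT and 6 KO embryos. They are biological replicates by the labels and technical duplicates by the paper, so that the errors below are the spread between libraries and need not be that between embryos.

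The libraries held between 8075102 and 9995968 counts, and 3 counts corresponded to 0.294 to 0.372 CPM (counts scaled to the TMM-adjusted library size). Mitochondrial rRNA took 8.66% of WT replicate 1 and 1.51% to 2.32% of the others. *Dnmt1* itself had 385 and 446 CPM in WT and 283 and 281 CPM in KO, counted over the whole gene. The fold change of *Dnmt1* was -0.56 ± 0.14 (log2, standard error; edgeR adjusted p = 0.0511), and it lay past the threshold with DESeq2 (adjusted p = 0.00843). The labelled cell type was present in all 4 libraries, with *Gad1* at 127 to 160 CPM, *Gad2* at 169 to 252 CPM, *Slc32a1* at 53.0 to 74.7 CPM and *Hmx3* at 71.8 to 93.7 CPM. The 10 GABAergic POA neuron markers summed to 1655 and 1512 CPM in WT and to 1276 and 1389 CPM in KO. None of them was called (edgeR adjusted p, smallest 0.168), all 10 log2 fold changes were negative, and 3 were lower at an unadjusted p under 0.05. Markers of astrocytes, mural cells and the oligodendrocyte lineage moved with the genotype, beside 7.33% of all genes called higher and 0.570% called lower. The 12 astrocyte markers summed to 263 and 278 CPM in WT and to 4006 and 4208 CPM in KO, and all 12 were called higher. Of these, *Gfap* had 0 counts in both WT libraries. The 8 mural cell markers summed to 63.2 and 71.5 CPM in WT and to 420 and 426 CPM in KO (7 called higher, *Acta2* at 0 in WT). The 11 oligodendrocyte lineage markers summed to 1412 and 1491 CPM in WT and to 2191 and 2248 CPM in KO (6 called higher). The 9 microglia markers summed to 29.0 and 36.7 CPM in WT and to 61.6 and 62.6 CPM in KO (7 tested, 1 called higher, 5 higher at an unadjusted p under 0.05), and the 9 endothelial markers to 22.0 and 22.7 CPM in WT and to 25.4 and 28.6 CPM in KO (7 tested, 0 called, 1 higher and 2 lower at an unadjusted p under 0.05, and *Ly6c1* at 0 in WT). The 12 neuron markers summed to 6781 and 6229 CPM in WT and to 4624 and 4565 CPM in KO, with 3 of 12 called lower and 9 lower at an unadjusted p under 0.05. In such bulk libraries, fewer cells of a type and less RNA per cell cannot be told apart.

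Promoter sequences from RefSeq (GRCm38.p6) were used for 7 of the 10 genes, and those of *Arc*, *Egr1* and *Ier2* were not analysed here. The 250 bases before the start site were searched on both strands for the full CRE TGACGTCA, the CRE core TGACG that lies within it, the AP-1 site TGAGTCA, the TATA motif TATAAA and the CArG box. The windows of *Fos*, *Fosb* and *Nr4a1* are shown because these genes were among those with the largest differences between genotypes, in opposite directions. They read 5′ to 3′ on the strand of the gene, with every CRE core (TGACG, or CGTCA on the other strand) and TATA motif in capitals.

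*Fos*, chr12:85473640-85473889, plus strand: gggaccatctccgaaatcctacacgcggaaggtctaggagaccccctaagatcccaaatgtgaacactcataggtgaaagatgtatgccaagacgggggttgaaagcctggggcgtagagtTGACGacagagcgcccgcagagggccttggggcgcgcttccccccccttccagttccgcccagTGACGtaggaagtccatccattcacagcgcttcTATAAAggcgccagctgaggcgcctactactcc
*Fosb*, chr7:19310046-19310295, minus strand: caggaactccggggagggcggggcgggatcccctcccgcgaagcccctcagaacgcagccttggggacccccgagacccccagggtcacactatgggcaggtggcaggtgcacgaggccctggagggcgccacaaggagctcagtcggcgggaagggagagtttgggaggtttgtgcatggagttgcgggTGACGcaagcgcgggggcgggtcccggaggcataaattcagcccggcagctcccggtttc
*Nr4a1*, chr15:101266596-101266845, plus strand: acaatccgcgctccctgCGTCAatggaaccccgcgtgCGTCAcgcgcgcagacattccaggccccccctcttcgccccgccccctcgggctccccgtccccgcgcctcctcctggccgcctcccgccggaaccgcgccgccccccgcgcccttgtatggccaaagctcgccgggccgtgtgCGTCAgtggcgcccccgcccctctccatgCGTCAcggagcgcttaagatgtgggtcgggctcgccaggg

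The CRE core stood at -66 to -62 from the start site of *Fos* and at -60 to -56 from that of *Fosb*, with another *Fos* copy at -129 to -125. The *Nr4a1* window held 4 copies, the nearest at -40 to -36. *Junb* held 1 copy, the window of *Jun* held 0, and *Egr2*, with 5 annotated starts, held 2 copies in each of 3 overlapping windows. The 2 copies in the *Npas4* window lie in transcribed sequence, since all 250 bases of that window fall in annotated exons of GENCODE M21. Of the other windows, that of *Fosb* has 6 exonic bases and those of *Egr2* at most 61. Over all 32851 windows of this length, outside mouse chromosome 18, 17.8% held a CRE core. A CArG box was found in 4 of the 5 *Egr2* windows and in 1.47% of all windows, and the TATA motif in *Fos* alone of the 7 genes and in 12.4% of all windows. No full CRE and no AP-1 site was found in these windows, against 1.55% and 4.46% of all windows. A match is only a run of letters, and the windows do not reach upstream enhancers.

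Per length of their merged exons (RPKM, CPM per kilobase), the 10 genes spanned a wide range of levels. In WT, *Jun* stood highest at 30.5 ± 5.78 RPKM (SD, n = 2), followed by *Fos* at 25.3 ± 0.301 RPKM. Both lay above 90.3% or more of the tested genes. A middle tier of *Egr1* (8.28 ± 2.93 RPKM), *Ier2* (7.83 ± 0.579 RPKM) and *Npas4* (7.66 ± 1.07 RPKM) had overlapping library values. So did *Junb* (4.39 ± 0.951 RPKM), *Fosb* (3.91 ± 0.0187 RPKM) and *Nr4a1* (3.58 ± 0.816 RPKM). *Arc* followed at 2.22 ± 0.213 RPKM, and *Egr2* was lowest at 0.539 ± 0.298 RPKM. The merged exons of *Fosb* span 6243 bases, against 2352 for *Fos*, which lowers its level on this scale. In KO, *Jun* (24.0 ± 2.48 RPKM) and *Fos* (15.8 ± 0.624 RPKM) still led and *Egr2* was still last. *Nr4a1* stood at 7.01 ± 2.87 RPKM and took order 5 and 3 of 10 in the KO libraries, in place of 8 and 7 in WT. *Npas4*, at order 5 and 3 in WT, was at 7 in both KO libraries, and *Fosb* went from 6 and 8 to 9 in both.

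**Figure D1:**
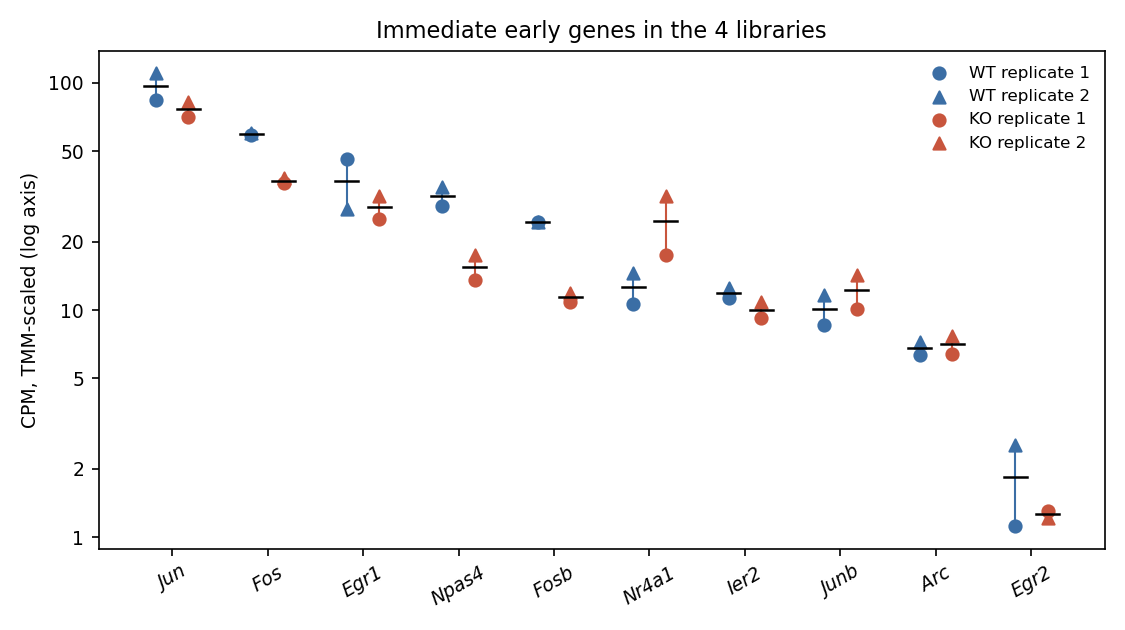
Level of each immediate early gene in CPM of the TMM-scaled library (log axis), with WT in blue and KO in red, a circle for replicate 1, a triangle for replicate 2 and a black bar for the mean of both. *Fos*, *Fosb* and *Npas4* show both KO libraries well below both WT libraries, and *Nr4a1* both above, with its KO libraries far apart at 17.5 and 31.7 CPM.

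The comparison asked which of these genes differed after *Dnmt1* deletion. *Fos*, *Fosb* and *Npas4* were lower in KO, with 0.625, 0.468 and 0.489 times the WT level, and were the only 3 of the 10 genes called by edgeR at an adjusted p under 0.05, a threshold passed by 7.90% of all genes tested. *Nr4a1* had 1.95 times the WT level and was not called. By direction, 0.570% of them were called lower and 7.33% higher. The first share depended on the fit: 96 genes were called lower, against 1895 once each library was corrected for length and GC content and 51 to 2180 with a library left out. Since this contrast is the one the genes were proposed on, nothing is read from their share. No member was called higher with edgeR, DESeq2 or limma-voom. *Nr4a1* alone was called higher with library size only, without the filter on low counts or with the length and GC correction. At an unadjusted edgeR p under 0.05, 1 member was higher and 3 were lower, beside 2464 and 1349 of all 16832 genes. The median of the members stood at -0.36 on the log2 scale, beside -0.03 over all tested genes. For 5 genes the KO values were both under the WT values, and for 1 both over them, against 25.2% and 28.3% of all genes tested. Together the 10 genes made up 280 and 306 CPM in WT and 201 and 247 CPM in KO.

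*Fos* encodes the leucine zipper protein that pairs with JUN proteins to form AP-1. It lies on chromosome 12 of GRCm38 from 85473890 to 85477273 and was counted 475 and 612 times in the WT libraries against 304 and 347 times in KO. This corresponds to 59.0 and 60.0 CPM in WT and to 36.1 and 38.2 CPM in KO. The libraries of a genotype were nearly equal and the genotypes did not overlap. The log2 fold change of *Fos* was -0.68 (standard error 0.15), and it was -0.57 and not called when libraries were scaled by size alone.

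*Fosb*, whose product likewise needs a JUN partner, lies on chromosome 7 from 19302696 to 19310051 on the minus strand. It was counted 196 and 250 times in the WT libraries against 92 and 108 times in KO, or 24.3 and 24.5 CPM in WT and 10.9 and 11.9 CPM in KO. The log2 fold change was -1.10 (standard error 0.21), the most negative of the 10 genes. The ratio of *Fosb* to *Fos* counts within a library, which no library scaling can move, was 0.413 and 0.408 in WT and 0.303 and 0.311 in KO.

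*Npas4*, on chromosome 19 from 4984355 to 4990316 on the minus strand, encodes a bHLH-PAS factor that is induced by calcium entry in neurons and shapes inhibitory synapses. It was counted 230 and 355 times in the WT libraries against 114 and 158 times in KO, or 28.6 and 34.8 CPM in WT and 13.6 and 17.4 CPM in KO. Every KO value lay under every WT value, and the fold change was -1.03 ± 0.22 (log2, standard error). These calls depended on which library was left out. Without a KO library the spread came from the WT libraries alone, and the standard error of *Fos* was 0.32, against 0.17 without a WT library. With KO replicate 1 left out, 0 of the 10 genes were called lower, and without KO replicate 2 only *Npas4* was, although the log2 fold changes stayed between -0.71 and -0.63 for *Fos*, -1.15 and -1.02 for *Fosb* and -1.22 and -0.85 for *Npas4* whichever library was left out.

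The JUN proteins pair with FOS proteins or with each other. *Jun*, on chromosome 4 from 95049034 to 95052222, had 84.2 and 110 CPM in WT and 71.0 and 82.2 CPM in KO. The higher KO library lay just below the lower WT library, and the log2 fold change was -0.35 (standard error 0.18), not called. *Jun* was called after the length and GC correction (-0.51) and without WT replicate 1 (-0.53), while without WT replicate 2 the value was -0.15. *Junb*, on chromosome 8 from 84974484 to 84978718, had 8.57 and 11.7 CPM in WT and 10.1 and 14.3 CPM in KO. These values overlapped (log2 fold change 0.27, standard error 0.30). The antisense genes *Junos* and *Prdx2* overlap 7.28% of the exonic bases of *Jun* and 7.52% of those of *Junb*, and without a stated strand setting their reads cannot be told apart there. The ratio of *Junb* to *Fos* counts was 0.145 and 0.194 in WT and 0.280 and 0.375 in KO, and that of *Jun* to *Fos* was 1.43 and 1.84 in WT and 1.96 and 2.15 in KO.

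*Nr4a1* encodes the orphan nuclear receptor NUR77 and lies on chromosome 15 from 101254269 to 101274795. It was counted 85 and 149 times in the WT libraries against 147 and 288 times in KO. As a level this was 10.6 and 14.6 CPM in WT and 17.5 and 31.7 CPM in KO, so that the KO libraries lay above the WT libraries but differed by 0.86 on the log2 scale from each other. The log2 fold change of 0.96 (standard error 0.32) was not called, but the gene was called when libraries were scaled by size alone (1.06), without the filter on low counts (0.97) and after the length and GC correction (0.79). It was 0.47 without KO replicate 2 and 1.34 without KO replicate 1, and the gene was called when any library other than KO replicate 2 was left out. The ratio of *Nr4a1* to *Fos* counts was 0.179 and 0.243 in WT and 0.484 and 0.830 in KO, and that of *Nr4a1* to *Npas4* was 0.370 and 0.420 in WT and 1.29 and 1.82 in KO. These pairs were picked after the values were seen and restate the fold changes free of library scaling. The ratio of *Npas4* to *Fos* was 0.484 and 0.580 in WT and 0.375 and 0.455 in KO, with a gap between the genotypes smaller than the spread within either.

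Of the other 4 genes, *Egr1*, *Egr2* and *Arc* overlapped between the genotypes, and none of the 4 was called. *Egr1*, which encodes a zinc finger factor of growth factor and synaptic signalling, had 46.4 and 27.8 CPM in WT and 25.1 and 31.6 CPM in KO. Its log2 fold change of -0.38 (standard error 0.26) depended on the WT library used: it was 0.02 without WT replicate 1 and -0.72, and called, without WT replicate 2. *Egr2*, a related factor known from hindbrain patterning and myelinating Schwann cells, was close to the limit of detection with 9 and 26 counts in WT and 11 in both KO libraries (log2 fold change -0.56, standard error 0.62). Without WT replicate 2 its log2 fold change was 0.16, and without WT replicate 1 it was -1.02. *Arc*, whose product acts in AMPA receptor removal from synapses, had 6.33 and 7.25 CPM in WT and 6.42 and 7.71 CPM in KO. The fold change of *Arc* was 0.06 ± 0.30 (log2, standard error), and it was -0.11 after a correction of each library for gene length and GC content. *Ier2*, a small nuclear protein gene of the serum response, had 11.3 and 12.5 CPM in WT and 9.27 and 10.8 CPM in KO (log2 fold change -0.25, standard error 0.26), with the KO libraries just below the WT libraries.

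**Figure D2:**
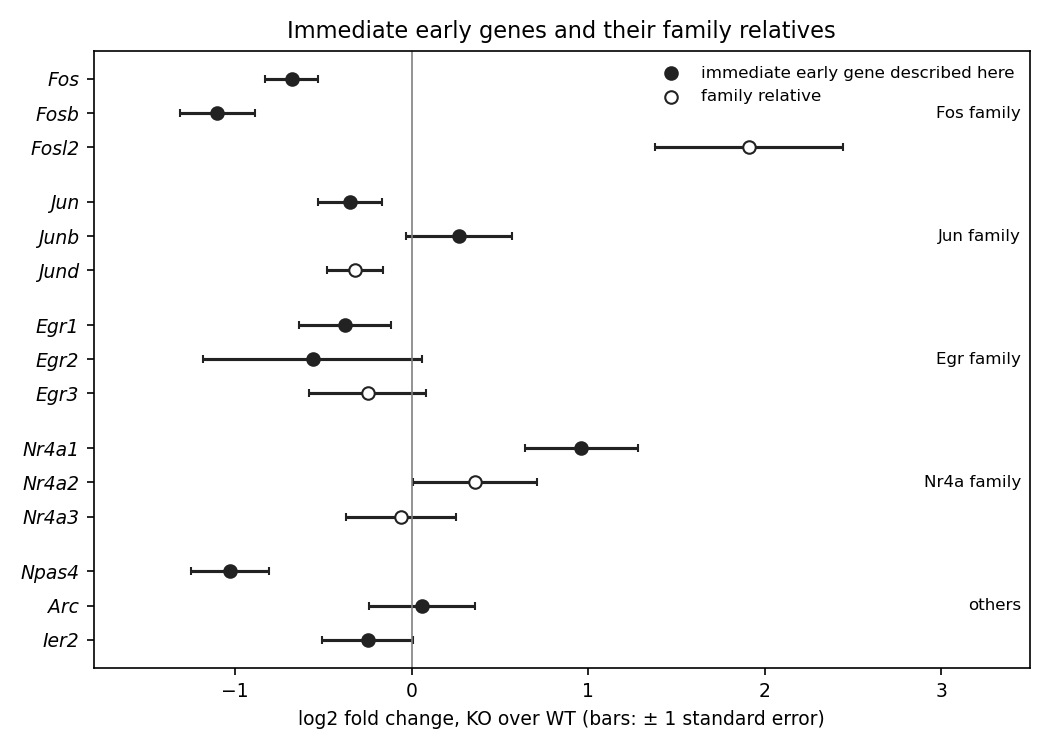
Log2 fold change of KO over WT (points) with 1 standard error (bars) for the immediate early genes (filled) and the tested relatives from their gene families (open). Within the Fos family *Fos* and *Fosb* lie at -0.68 and -1.10 while *Fosl2* lies at 1.91, and within the Nr4a family *Nr4a1* stands at 0.96 with *Nr4a2* at 0.36 and *Nr4a3* at -0.06.

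The median difference between the libraries of a genotype was about the same for these genes as for other genes in WT and larger in KO. Among genes with at least 10 counts in every library, the median absolute log2 ratio of the WT libraries was 0.28 for 9 members and 0.29 for 14294 genes, and that of the KO libraries was 0.26 and 0.17. The members and the 14294 genes were not matched on count level. In KO all 9 members were higher in replicate 2 than in replicate 1, from 0.08 for *Fos* to 0.86 for *Nr4a1* on the log2 scale. The KO median thus includes a shift in the same direction and is not only spread of single genes.

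Counts were also set against the summed neuron marker counts of the same library, a scaling added after the values were seen. Only the markers are neuronal. The counts of the 10 genes come from all cells of a library, so that these values are not levels per neuron. Per 1000 counts of the 12 neuron markers, *Fos* was counted 8.70 and 9.63 times in the WT libraries against 7.82 and 8.37 times in KO, a difference of -0.18 on the log2 scale. On this scale the difference of *Fosb* was -0.60 (3.59 and 3.93 in WT, 2.37 and 2.61 in KO) and that of *Npas4* was -0.54 (4.21 and 5.58 in WT, 2.93 and 3.81 in KO). *Nr4a1* stood at 1.46, with 1.56 and 2.34 in WT and 3.78 and 6.95 in KO, and the differences of *Junb* and *Arc* were 0.76 and 0.55. *Jun* (0.15), *Egr1* (0.13) and *Ier2* (0.25), negative on the CPM scale, were positive on this one, through the shift that all genes share. Against the 10 GABAergic POA neuron markers, the differences were -0.43 for *Fos*, -0.85 for *Fosb*, -0.80 for *Npas4* and 1.19 for *Nr4a1*, and *Jun* (-0.11), *Egr1* (-0.13) and *Ier2* (-0.01) were negative. Such a scaling moves all genes of a library by the same factor, so that it changes the size and sign of the differences and not their order. Levels of the neuron and glial markers moved with the genotype as given above, and their part in these differences was not tested.

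The relatives of these genes, named to complete the families and outside the rule for named genes, had fold changes of either sign. *Fosl2*, the Fos family gene of slower kinetics, was counted 34 and 12 times in the WT libraries against 70 and 104 times in KO (log2 fold change 1.91, standard error 0.53, edgeR adjusted p = 0.0724). *Fosl1* had 5 counts in WT replicate 1 and 0 in the others and was not tested. *Jund* had 45.9 and 51.3 CPM in WT and 37.0 and 41.0 CPM in KO (log2 fold change -0.32, edgeR adjusted p = 0.278), and 52.6% of its exonic bases overlap the antisense gene *Gm11175*. *Egr3* (-0.25, adjusted p = 0.693), *Nr4a2* (0.36, adjusted p = 0.583) and *Nr4a3* (-0.06, adjusted p = 0.932) were not called by edgeR either, and *Egr4*, counted 5 and 9 times in the WT libraries against 0 and 3 times in KO, was not tested.

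The lists from here on were chosen with earlier results of these data known, so that their counts are a description. Of 30 further primary response genes, which include these relatives, 28 were tested. By edgeR at an adjusted p under 0.05, 2 were called higher and 0 lower, beside 7.33% and 0.570% of all genes. The number called higher was near the background at this threshold. At an unadjusted p under 0.05 there were 7 higher and 1 lower, beside 2464 and 1349 of all 16832 genes, and DESeq2 and limma-voom each called 3 higher and 0 lower. Their median log2 fold change was -0.02, and 14 were on either side of 0. Both genes called encode secreted matricellular proteins that YAP and SRF cofactors drive in many adherent cells. *Ccn1* was counted 65 and 68 times in the WT libraries against 142 and 164 times in KO (log2 fold change 1.25, standard error 0.25, edgeR adjusted p = 0.0207), which was no longer called without KO replicate 2 (1.20). *Ccn2* was counted 1 and 0 times in the WT libraries against 14 and 17 times in KO, a ratio of 32.4 with an exact 95% interval of 5.39 to 1319 that covers counting error only (edgeR adjusted p = 0.0263), and 23.2% of its exonic bases overlap the antisense gene *Gm15270*. It was not called with DESeq2, nor without WT replicate 2, KO replicate 1 or KO replicate 2. The number called higher was 6 when libraries were scaled by size alone and 0 without KO replicate 2.

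**Figure D3:**
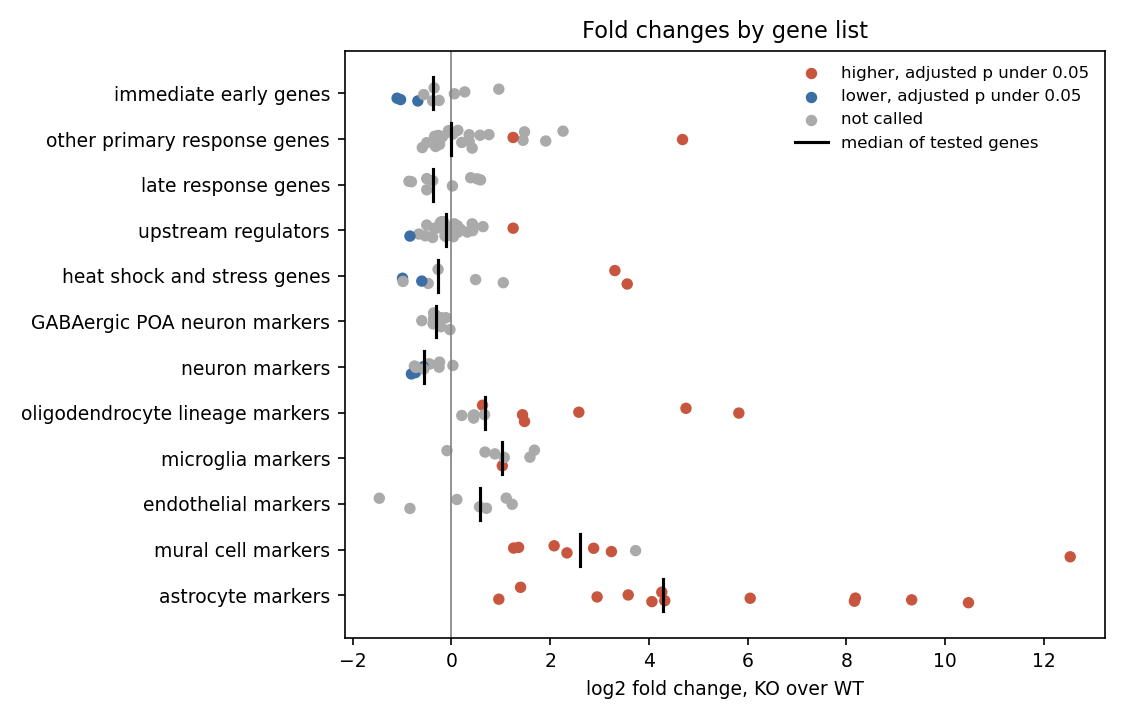
Log2 fold change of KO over WT for each tested gene (points, spread vertically for visibility) by gene list, coloured by the edgeR call at an adjusted p under 0.05, with the median of each list as a black bar. The medians are -0.36 for the immediate early, -0.38 for the late response and -0.10 for the upstream genes, -0.56 for neuron, -0.31 for GABAergic POA neuron and 4.29 for astrocyte markers; the farthest points, *Gfap* and *Acta2*, have 0 WT counts and a fitted value that depends on the prior count.

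Of 12 late response genes, 9 were tested and 0 were called by edgeR in either direction, beside 7.33% higher and 0.570% lower of all genes. The median log2 fold change was -0.38. At an unadjusted edgeR p under 0.05, 0 were higher and 2 lower, beside 2464 and 1349 of all 16832 genes. DESeq2 called 1 lower, beside 247 of all genes, and limma-voom 0, beside 100. The 2 genes lower at the unadjusted threshold, named after their values were seen, encode cargo of dense-core vesicles. *Scg2* had 431 and 531 CPM in WT and 351 and 330 CPM in KO (log2 fold change -0.50, edgeR adjusted p = 0.0983). *Vgf* had 14.4 and 18.3 CPM in WT and 7.61 and 11.0 CPM in KO (-0.81, edgeR adjusted p = 0.138). *Bdnf* was too low to be tested, with at most 12 counts in a library.

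Of 26 upstream regulators, all of which were tested, 1 was called higher and 1 lower, and the median log2 fold change was -0.10. Of all genes, 7.33% were called higher, 0.570% lower and 7.90% in either direction. Only the number called in either direction was near the background. *Crtc3*, a CREB coactivator, was higher with 18.0 and 13.9 CPM in WT and 32.6 and 43.0 CPM in KO (log2 fold change 1.25, standard error 0.22, edgeR adjusted p = 0.0113). *Mef2c*, a calcium-responsive factor of differentiating neurons, was lower with 70.3 and 55.5 CPM in WT and 34.4 and 35.9 CPM in KO (log2 fold change -0.84, standard error 0.17, edgeR adjusted p = 0.0216). *Crtc3* was not called without KO replicate 2 (1.04), nor *Mef2c* without KO replicate 1 (-0.79) or KO replicate 2 (-0.86). *Srf* (-0.38, edgeR adjusted p = 0.234) and *Creb1* (-0.66, edgeR adjusted p = 0.139), the factors introduced above and named outside the rule, were not called. *Creb1* differed between the WT libraries, at 229 and 135 CPM.

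Of 10 heat shock and stress genes, another set that dissociation can induce, 9 were tested, with 2 called higher and 2 lower, beside 7.33% and 0.570% of all genes, and a median log2 fold change of -0.27. The 2 higher were the inducible copies *Hspa1a* and *Hspa1b*, which are nearly identical in sequence, so that their reads may be split between them. Their log2 fold changes were 3.31 and 3.56 (edgeR adjusted p = 0.0127 and 0.00449), and they summed to 7 and 9 counts in the WT libraries and to 95 and 77 in the KO libraries. The antisense gene *Gm20481* overlaps 19.0% of the exonic bases of *Hspa1a*, with the strand setting not stated. Neither copy was tested where at least 10 counts were required in every library. Without KO replicate 1 only 1 of them was called. The constitutive chaperone *Hspa8* was lower, with 326 and 431 CPM in WT and 180 and 202 CPM in KO (log2 fold change -0.99, edgeR adjusted p = 0.0098), as was *Hsp90aa1* (-0.60, edgeR adjusted p = 0.0414), the latter no longer without either KO replicate (-0.68 and -0.50). These stress genes moved in both directions beside the immediate early genes, and their part in those differences was not tested.

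**Figure D4:**
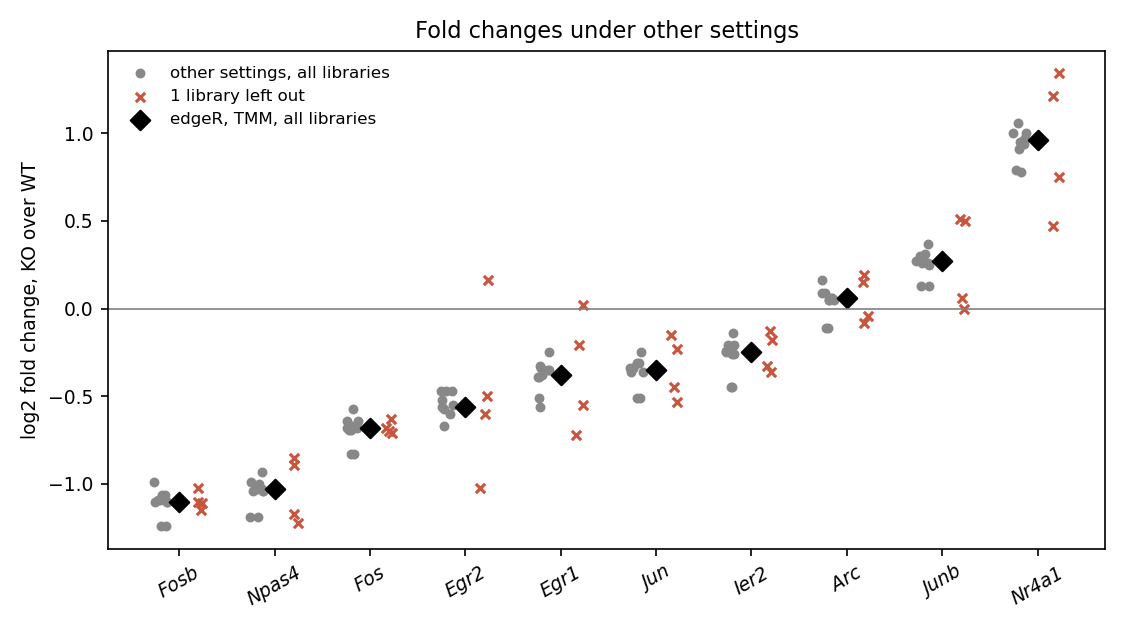
Log2 fold change of KO over WT of each immediate early gene with edgeR, TMM and all libraries (black diamonds), under other settings with all libraries (grey points) and with 1 library left out (red crosses). *Fosb*, *Npas4* and *Fos* stay below 0 and *Nr4a1* above 0 in every fit shown, while *Egr1*, *Egr2*, *Arc* and *Junb* reach or cross 0 when a library is left out.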

How the data were processed

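RNA sequencing of 2 WT and 2 KO libraries was analysed; MeDIP data were not analysed here. The authors deposited raw counts per Ensembl gene for each library. The submitters' processing notes name CASAVA 1.8.2, STAR 2.5.2a, featureCounts 1.5.0-p1 and the build mm10/GRCm38; the strand setting is not given in the sources used here. Identifiers were matched to GENCODE M21 (55480 of 55573).

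Genotypes were compared with edgeR 4.0.16 (R 4.3.3): filterByExpr, TMM scaling, quasi-likelihood test on genotype with all 4 libraries, Benjamini-Hochberg adjustment over 16832 genes, and a call at an adjusted p under 0.05. The code was tested on simulated data. RPKM used merged exon lengths and the TMM-scaled library size. Alternatives used DESeq2 1.42.0, limma-voom (limma 3.58.1), other scalings, filters and thresholds, a length and GC correction, and each library left out. Named genes were the 10 members, *Dnmt1*, *Hmx3*, *Gad1*, *Gad2*, *Slc32a1* and, from each of the primary response, late response, upstream and heat shock lists, up to 6 called genes at either end. Exceptions are named where they occur. Members and lists were chosen with earlier results of these data known. The scaling to neuron markers was added after the values were seen. Promoter windows held the 250 bases before each RefSeq start, without the bases after it that had been planned; some still overlap GENCODE M21 exons. Intervals from counts cover counting error only. With 8075102 to 9995968 counts per library, 3 counts were 0.294 to 0.372 CPM.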

Additional observations from a re-analysis of the deposited data

How the results depend on the processing

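With 2 libraries per genotype the calls depended on the fit more than the fold changes did. Across 10 other fits with all libraries, the log2 fold change stayed between -0.83 and -0.57 for *Fos*, -1.24 and -0.99 for *Fosb*, -1.19 and -0.93 for *Npas4* and 0.78 and 1.06 for *Nr4a1*, and *Fos* was not called with library size only. The number of members called lower (3) was 5 with the length and GC correction and replicate block, 0 at an adjusted p under 0.01 and 0 to 4 with a library left out. The number called higher (0) was 1, *Nr4a1*, with library size only, no filter on low counts, the replicate block, the correction and both together, and 0 to 1 with a library left out. Members with both KO libraries below both WT libraries (5) numbered 3 with library size only.

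The sign changed for *Arc* (-0.11 with the length and GC correction, with or without the block, -0.04 without WT replicate 1, -0.08 without KO replicate 2), *Junb* (-0.00 without KO replicate 2), *Egr1* (0.02 without WT replicate 1) and *Egr2* (0.16 without WT replicate 2). Over the 4 fits with a library left out, they spanned -0.08 to 0.19 for *Arc*, -0.00 to 0.51 for *Junb*, -0.72 to 0.02 for *Egr1* and -1.02 to 0.16 for *Egr2*. Relative to neuron markers, *Jun* (0.15), *Egr1* (0.13) and *Ier2* (0.25) changed sign through a shift shared by all genes, and *Fos* (-0.18), *Fosb* (-0.60), *Npas4* (-0.54), *Junb* (0.76), *Arc* (0.55) and *Nr4a1* (1.46) moved. Relative to GABAergic POA neuron markers *Fos* (-0.43), *Fosb* (-0.85), *Npas4* (-0.80) and *Jun* (-0.11) moved. *Dnmt1* was called with DESeq2 (-0.57), limma-voom (-0.56), DESeq2 size factors (-0.57), no filter (-0.55), the replicate block (-0.56) and the correction without and with the block (-0.68 in both), and ranged from -0.67 to -0.46 with a library left out.

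Over all genes, 1233 were called higher and 96 lower. With the correction 1806 were higher and 1895 lower, and with the block added 2007 and 2310. Genes called lower numbered 247 with DESeq2, 573 without a filter, 52 with at least 10 counts in every library, 619 with the replicate block, 318 at an adjusted p under 0.1 and 16 under 0.01, where 724 were higher. With a library left out, 900 to 2578 were higher and 51 to 2180 lower. The cause was not tested.

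Other primary response genes called higher (2) numbered 6 with library size only, no filter, the block, the correction, both together and an adjusted p under 0.1, 5 with upper quartile scaling, 1 with at least 10 counts, 0 at 0.01 and 0 to 6 with a library left out. Those called lower (0) numbered 5 with the correction, with or without the block, and 0 to 1 with a library left out. Late response genes called lower (0) numbered 1 with DESeq2, no filter and 0.1, 2 with either the block or the correction, 3 with both and 0 to 3 with a library left out, where 0 to 1 were higher. Upstream regulators called higher (1) numbered 2 with library size only, upper quartile, no filter, the block, the correction, both and 0.1, 0 at 0.01 and 0 to 4 with a library left out. Those called lower (1) numbered 2 with DESeq2, 3 with no filter, 3 with the block, 5 with the correction, 5 with both, 0 at 0.01 and 0 to 5 with a library left out. Heat shock genes called higher (2) numbered 0 with at least 10 counts, 1 at 0.01 and 1 to 3 with a library left out. Those called lower (2) numbered 1 with library size only, at least 10 counts and 0.01, 4 with the block, 5 with the correction and with both and 1 to 4 with a library left out.

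Same-numbered libraries share only a number. Their deviations correlated at 0.137 over 16832 genes, and with 2 pairs this does not settle a pairing, so that the replicate block is given here alone. Fits without a library assume that the lone library varies like the other genotype. *Egr2*, with 9 to 26 counts per library, had the largest standard error of the members (0.62).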
